A study of Mus musculus with 6 samples.

Results

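The acute-phase proteins examined here were 10 of the 17460 gene symbols in a liver RNA-sequencing table: Saa1, Saa2, Saa4, Orm1, Orm2, Orm3, Lcn2, Hp, Hpx and Apcs. They were chosen by symbol and not by a measured value of the table, and all 10 were listed and passed the filter on low values. The table came from livers of 9-month-old C57BL/6 mice that had been fed a diet that produces nonalcoholic steatohepatitis (NASH) for 24 weeks, 3 control and 3 Blnc1 LKO. Blnc1 is a long noncoding RNA, and LKO mice were Cas9 transgenic mice given an adenovirus in the tail vein that carried a pair of single guide RNAs against it. The study describes non-parenchymal liver cells as poorly transduced by adenovirus, so these cells may have kept Blnc1. Whether the control mice of the NASH cohort carried Cas9, and what they were injected with, is not restated in the methods. In the study's high-fat diet cohort, control mice were also Cas9 transgenic and received a GFP adenovirus. The sex of the mice is not in the labels. PolyA-selected RNA was sequenced from each liver.

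Acute-phase proteins are plasma proteins that hepatocytes make and secrete in changed amounts during infection and tissue injury. Interleukin-6 acts through gp130, JAK kinases and STAT3, and interleukin-1 and tumour necrosis factor act through NF-kB. Together with the C/EBP transcription factors and glucocorticoids, these signals raise the positive acute-phase genes, and the negative ones, albumin among them, are lowered. In NASH liver, the same cytokines are made by macrophages and other inflammatory cells.

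The 10 proteins fall into small families. Serum amyloid A proteins, encoded by Saa1, Saa2 and Saa4, travel on high-density lipoprotein, and Saa1 and Saa2 are the strongly inducible forms whereas Saa4 is the constitutive one. Orosomucoids, or alpha-1-acid glycoproteins, bind lipophilic compounds and are encoded by Orm1, Orm2 and Orm3. Lipocalin-2 (Lcn2) binds bacterial siderophores, haptoglobin (Hp) binds free haemoglobin, hemopexin (Hpx) binds haem, and serum amyloid P component (Apcs) is a pentraxin that binds amyloid deposits.

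Sequence just before the transcription start was available for 8 of the 10 genes, all but Orm1 and Hp (RefSeq, GRCm38.p6, 250 bases before the start and 50 from it). The promoters of Saa1, Saa2 and Saa4 are shown because Saa4 and the other Saa genes had opposite differences between the groups, those of Orm2 and Orm3 because they are neighbours with unequal differences, and that of Lcn2 because its difference ranked next to that of Orm2. Saa1 lies at chr7:46742931-46743230 on the minus strand, Saa2 at chr7:46751583-46751882 on the plus strand and Saa4 at chr7:46732554-46732853 on the minus strand. Orm2 lies at chr4:63362199-63362498 and Orm3 at chr4:63355908-63356207, both on the plus strand, and Lcn2 at chr2:32387690-32387989 on the minus strand. Capitals mark matches to the motifs that were searched, on the gene's strand or its reverse complement.
Saa1: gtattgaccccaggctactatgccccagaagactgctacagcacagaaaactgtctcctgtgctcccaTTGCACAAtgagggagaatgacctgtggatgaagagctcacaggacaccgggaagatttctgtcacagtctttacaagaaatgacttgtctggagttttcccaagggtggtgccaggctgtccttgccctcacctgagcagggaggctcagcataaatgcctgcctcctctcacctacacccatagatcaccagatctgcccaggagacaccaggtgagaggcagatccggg
Saa2: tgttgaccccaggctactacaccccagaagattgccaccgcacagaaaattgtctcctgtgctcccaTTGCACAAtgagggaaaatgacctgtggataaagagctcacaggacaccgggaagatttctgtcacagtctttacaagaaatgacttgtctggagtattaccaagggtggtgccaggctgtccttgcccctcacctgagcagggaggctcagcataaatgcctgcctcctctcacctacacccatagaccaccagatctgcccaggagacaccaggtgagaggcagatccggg
Saa4: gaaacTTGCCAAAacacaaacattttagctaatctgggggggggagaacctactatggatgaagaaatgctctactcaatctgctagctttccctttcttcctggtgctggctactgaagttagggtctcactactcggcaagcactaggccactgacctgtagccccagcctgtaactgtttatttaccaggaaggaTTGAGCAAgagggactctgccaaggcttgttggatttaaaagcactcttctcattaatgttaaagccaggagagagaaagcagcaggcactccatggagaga
Orm2: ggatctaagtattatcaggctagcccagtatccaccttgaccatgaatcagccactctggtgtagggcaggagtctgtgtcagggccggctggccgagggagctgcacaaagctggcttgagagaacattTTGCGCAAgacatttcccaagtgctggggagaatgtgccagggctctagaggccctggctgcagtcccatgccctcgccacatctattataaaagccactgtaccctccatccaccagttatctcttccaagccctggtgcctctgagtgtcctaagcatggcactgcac
Orm3: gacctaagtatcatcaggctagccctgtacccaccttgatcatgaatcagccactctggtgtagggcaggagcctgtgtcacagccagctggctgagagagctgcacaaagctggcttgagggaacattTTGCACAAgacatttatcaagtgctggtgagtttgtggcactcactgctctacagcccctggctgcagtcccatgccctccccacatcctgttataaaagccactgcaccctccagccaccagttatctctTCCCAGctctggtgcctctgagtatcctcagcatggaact
Lcn2: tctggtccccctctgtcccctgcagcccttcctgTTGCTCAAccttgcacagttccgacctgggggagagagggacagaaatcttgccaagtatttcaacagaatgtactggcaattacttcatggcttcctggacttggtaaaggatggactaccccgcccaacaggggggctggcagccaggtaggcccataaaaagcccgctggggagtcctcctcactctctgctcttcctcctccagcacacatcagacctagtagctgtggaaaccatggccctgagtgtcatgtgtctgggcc

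The letters TTGCNNAA, a C/EBP pattern, were found on either strand in 7 of the 8 promoters, all but Apcs, and in 10.8% of all 27025 mouse promoters of the same length. Saa1 and Saa2 held TTGCACAA at −182 and −183 relative to the start, and their promoters were identical at 287 of the aligned positions (95.3%). The Saa4 promoter was 44.0% identical to that of Saa1 and held 2 matches at other positions, TTGCCAAA at −245 and TTGAGCAA at −52. Orm2 held TTGCGCAA and Orm3 held TTGCACAA, at −120 and −121, in promoters that were 86.2% identical. Lcn2 held TTGCTCAA at −216. The STAT3 pattern TTCNNNGAA was found only in the promoter of Apcs among the 8 (8.5% of all promoters), and the interleukin-6 response element CTGGGA in those of Apcs and Orm3 (31.5% of all promoters; the Orm3 match is the capitals TCCCAG after the start). The NF-kB pattern GGANTTTCC and the HNF1 pattern GTTAATNAT were in none of the 8, against 1.2% and 0.8% of all promoters, and matches of different motifs did not overlap. A match describes these letters in this window and not binding of a factor. The lack of a match to these letters does not show that a factor has no site there.

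The livers yielded between 65384969 and 89350181 reads on the listed genes, recovered from the deposited values. Values given below are normalised read counts, that is, reads divided by the size factor of the liver. The acute-phase genes were far from the counting limit: Orm3, the lowest, had at least 927 reads in every liver, and Hpx, the highest, at least 331244. The table lists no row named Blnc1, so the loss of the target was not measured here. Hepatocyte markers such as Alb were abundant in all livers, with a summed value of 6 markers from 5296616 to 5909560 in control and from 5160796 to 6290110 in LKO livers. Alb alone, with means of 4078334 in control and 4132127 in LKO livers, made up most of this sum. Alb, Apoa1 and Ttr also belong to the negative acute-phase genes read below. Of the 6 markers, 2 had a lower mean in LKO livers, Apoa1 (95.8% of control) and Cps1 (85.7%), both with overlap, and 4 a higher mean. Serpina1c, an alpha-1-antitrypsin gene, was higher in each LKO liver than in any control liver (132% of control, unadjusted p = 0.0404, adjusted p = 0.860, limma). In whole liver, fewer cells of a type and less RNA per cell cannot be told apart.

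In 9 of the 10 acute-phase genes the Blnc1 LKO mean was below the control mean, and in Saa4 it was above. The differences were modest, and none passed an adjusted p under 0.05 in limma, fitted to log2(value + 1) over 17297 genes with Benjamini-Hochberg adjustment, where 0.00578% of all genes passed. At an unadjusted p under 0.05, 4 members were lower (Orm2, Lcn2, Saa1 and Saa2) and 0 were higher, with 2.74% of all genes lower and 2.94% higher at that limit. In 3 members (Orm1, Orm2 and Hp) all LKO livers lay below all control livers, which held for 5.28% of all genes, and in 0 members all LKO livers lay above (5.35% of all genes). The median log2 fold change of the 10 members, the difference of group means of log2(value + 1), was −0.23, beside −0.001 over all genes tested, of which 50.4% had a lower mean. Over the 6824 genes with a mean at least as high as that of Orm3, the median was likewise −0.001. The count of 4 at an unadjusted p under 0.05 fell or rose with the liver left out. It was 1 without control replicate 1, control replicate 2, LKO replicate 1 or LKO replicate 3, each left out alone. In these fits 3.84%, 4.57%, 5.68% and 5.54% of all genes passed in either direction. It was 5 without control replicate 3 (Saa1, Saa2, Orm2, Lcn2 and Apcs, all lower), where 3.89% of all genes passed. It was 7 without LKO replicate 2 (Saa4 higher and 6 lower), where the share of all genes also went up, to 10.7%. Among the other tools, edgeR passed 0 members after adjustment (0.0116% of all genes) and 6 at an unadjusted p under 0.05 (5.60% of all genes in either direction). DESeq2 passed 1 after adjustment, Orm2, and called 0.250% of the 15617 genes with an adjusted p lower.

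**Figure D1:**
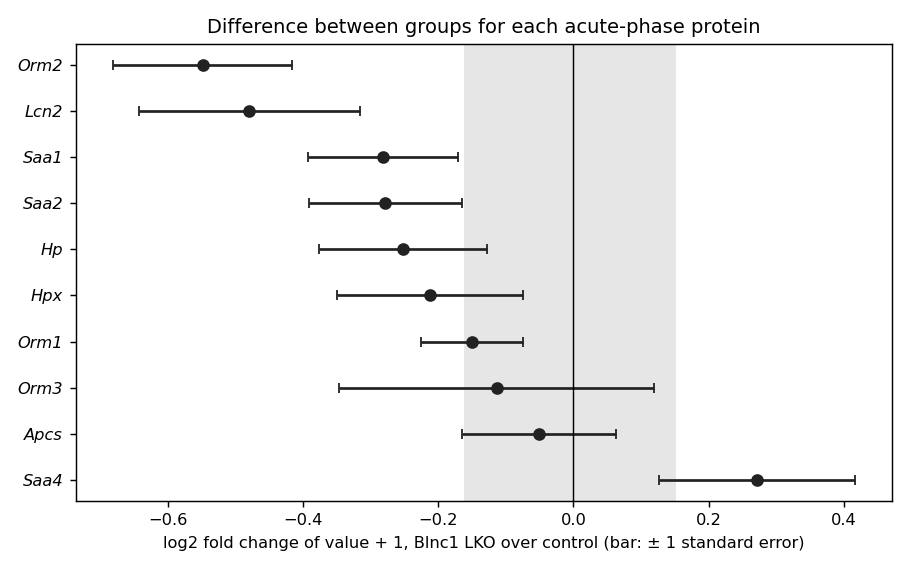
Log2 fold change of value + 1 (x axis, Blnc1 LKO over control, 3 livers each) for each acute-phase gene (y axis), with bars of 1 standard error; the grey band runs from the 5th to the 95th percentile, −0.16 to 0.15, of the 6824 genes at least as abundant as Orm3. Orm2 (−0.55) and Lcn2 (−0.48) lie farthest to the left, and Saa4 (0.27) lies alone on the right.

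Orm2 had the largest difference of the 10. Control livers had 7851, 10192 and 8221, and LKO livers 6467, 6637 and 4900. Every LKO liver lay below every control liver, and LKO replicate 3 was lowest. The mean of 8755 ± 1259 (SD, n = 3) in control was 6001 ± 957 (SD, n = 3) in LKO livers, 68.5% of control, a log2 difference of −0.55 (SE, the standard error, 0.13; unadjusted p = 0.00284, adjusted p = 0.555, limma). The tools differed on this gene, with an adjusted p of 0.551 in edgeR and 0.0150 in DESeq2, all with nearly the same fold change. With each liver left out in turn its unadjusted p stayed under 0.05 in 6 of 6 fits, and its log2 fold change ranged from −0.63 to −0.41.

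Orm1, the main mouse orosomucoid transcript in these livers, differed less. Its values were 62698, 69023 and 63980 in control and 60270, 55005 and 61145 in LKO livers. The groups did not overlap, with 62698 and 61145 as the nearest values. The mean was 65234 ± 3343 in control and 58807 ± 3321 in LKO livers (SD, n = 3 each), a log2 difference of −0.15 (SE 0.08, adjusted p = 0.899, limma). Orm3 showed no common direction, with 1101, 1228 and 1781 in control and 1504, 871 and 1452 in LKO livers. Its log2 fold change was −0.11 (SE 0.23, adjusted p = 0.986, limma), and it became 0.14 without LKO replicate 2 and 0.09 without control replicate 3.

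The 3 orosomucoid genes sit side by side on chromosome 4 (GENCODE M21, GRCm38), Orm1 at 63344560 to 63348163, Orm3 at 63356162 to 63359511 and Orm2 at 63362449 to 63365878, all on the plus strand. Within a liver, the value of Orm1 was 7.99, 6.77 and 7.78 times that of Orm2 in control livers and 9.32, 8.29 and 12.5 times in LKO livers. This ratio, not corrected for length, was thus higher in each LKO liver than in any control liver (two-sided exact permutation p = 0.10, the smallest that 3 against 3 livers allow; 0.50 after adjustment over the 5 ratios compared). Orm1 and Orm2 transcripts are 91.0% identical, and 20.4% and 22.7% of their windows of 50 bases occur in a transcript of another gene, or 7.0% of their windows of 100 bases. The read length is not given in the sources used here, so values of the separate Orm genes are uncertain to that extent. Summed over Orm1, Orm2 and Orm3, the value was 75359 ± 4555 in control and 66084 ± 3114 in LKO livers (SD, n = 3 each) without overlap, a log2 difference of −0.19 (SE 0.08; unadjusted p = 0.0389, adjusted p = 0.860, limma).

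**Figure D2:**
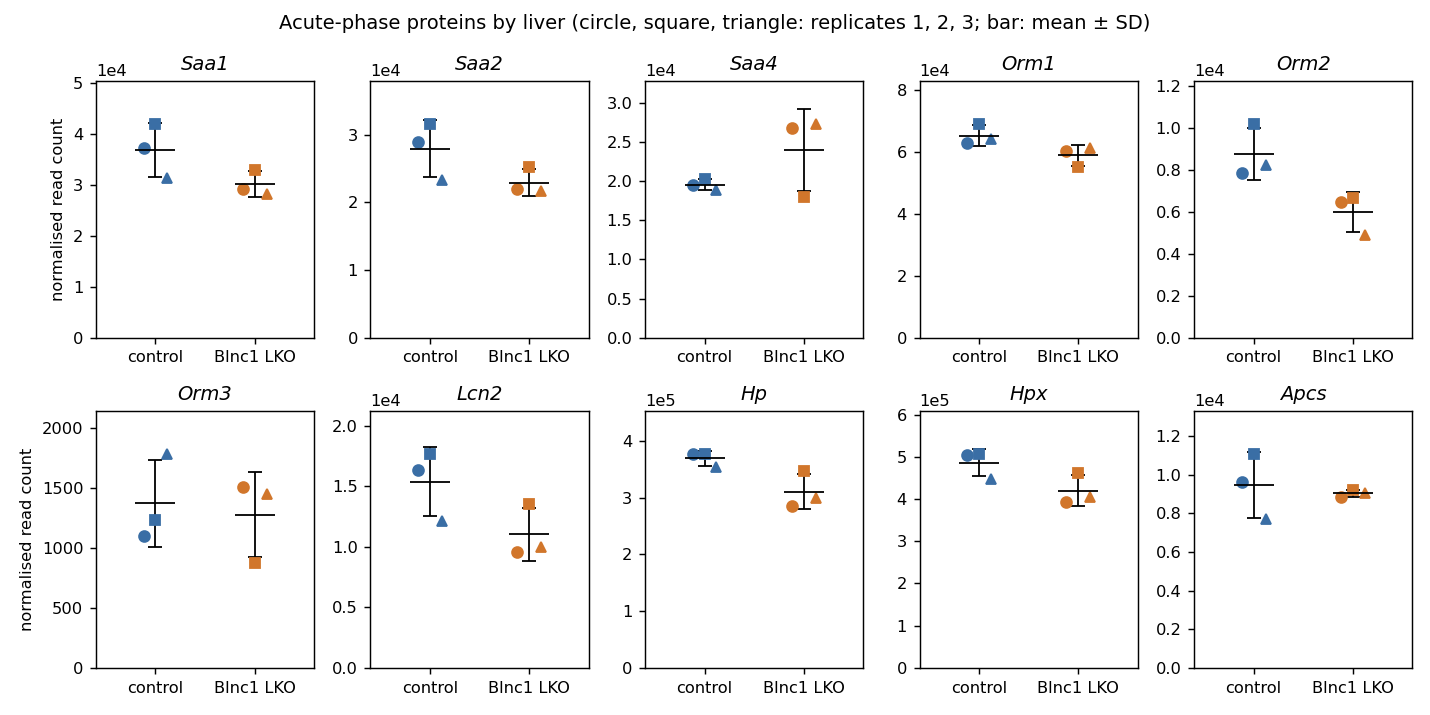
Normalised read count (y axis, linear from 0) of each acute-phase gene in 3 control and 3 Blnc1 LKO livers (x axis). Circles, squares and triangles are replicates 1, 2 and 3 of each group, which the labels do not pair. Bars give the mean ± SD. Orm1, Orm2 and Hp have no overlap between the groups, and the LKO livers of Saa4 split, with 26768 and 27326 above and 17976 below all controls.

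Lcn2 had the second largest difference. It had 16325, 17679 and 12175 in control and 9593, 13576 and 9961 in Blnc1 LKO livers. The groups overlapped, since LKO replicate 2 lay above control replicate 3. The mean of 15393 ± 2868 (SD, n = 3) in control was 11043 ± 2201 (SD, n = 3) in LKO livers, 71.7% of control, with a log2 difference of −0.48 (SE 0.16; unadjusted p = 0.0174, adjusted p = 0.824, limma). DESeq2 did not call it (adjusted p = 0.195). Neutrophils carry the Lcn2 protein in their granules and can express the gene, so their markers are given beside it. Of 10 neutrophil markers tested, 8 had a higher mean in LKO livers and 0 had an unadjusted p under 0.05, and their summed value was 1879, 1579 and 1240 in control and 1200, 2009 and 7624 in LKO livers. LKO replicate 3 thus stood apart in S100a8 and S100a9, both subunits of calprotectin. S100a8 had 1705 in that liver and 142 to 385 in the others. S100a9 had 2326 there, against a control mean of 321 ± 91.2 (SD, n = 3). Csf3r, the most abundant marker of the list, differed less, with 754, 724 and 696 in control and 594, 639 and 843 in LKO livers. The markers with a lower LKO mean were Csf3r (log2 fold change −0.08) and Cxcr2 (−0.20). The part of neutrophils in the Lcn2 values was not tested. Without LKO replicate 3 the log2 fold change of Lcn2 was −0.41. Lcn2 lies on chromosome 2 (32384633 to 32388252, minus strand), and none of its windows of 50 bases occurs in another gene's transcript.

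Saa1 and Saa2 moved together from liver to liver. Saa1 had 37288, 42031 and 31285 in control and 29284, 33033 and 28220 in Blnc1 LKO livers. Saa2 had 28892, 31610 and 23313 in control and 21903, 25189 and 21651 in LKO livers. For both genes control replicate 2 was highest, LKO replicate 3 lowest, and control replicate 3 lay inside the LKO range. Mean values were 36868 ± 5385 and 30179 ± 2528 for Saa1, and 27938 ± 4230 and 22914 ± 1974 for Saa2 (SD, n = 3 each). Both had a log2 difference of −0.28 (SE 0.11), with adjusted p = 0.851 for Saa1 and 0.857 for Saa2 in limma. The ratio of Saa1 to Saa2 stayed between 1.29 and 1.34 in all 6 livers (exact permutation p = 0.90). RefSeq lists each of these symbols as a synonym of the other, so which locus a row stands for depends on the annotation used in counting. GENCODE M21 places Saa1 at 46740497 to 46742980 on the minus strand of chromosome 7 and Saa2 at 46751790 to 46754313 on the plus strand. Their transcripts are 87.3% identical, with 14.8% and 9.1% of windows of 50 bases and none of 100 bases shared with another gene, and the sum of both genes had the same log2 fold change of −0.28 (SE 0.12, adjusted p = 0.861, limma).

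Saa4, in the same cluster on chromosome 7 (46727998 to 46732603, minus strand), was the only member with a higher mean. It had 19545, 20330 and 18818 in control livers, the tightest control group for its level among the Saa genes, and 26768, 17976 and 27326 in Blnc1 LKO livers. LKO replicates 1 and 3 lay above all controls, whereas LKO replicate 2 was the lowest of the 6 livers. The means were 19564 ± 756 and 24023 ± 5245 (SD, n = 3 each), a log2 difference of 0.27 (SE 0.15; unadjusted p = 0.0961, adjusted p = 0.924, limma). Without LKO replicate 2 the log2 fold change was 0.47. The ratio of Saa4 to Saa1 was 0.524, 0.484 and 0.601 in control and 0.914, 0.544 and 0.968 in LKO livers, so it overlapped between the groups through LKO replicate 2 (exact permutation p = 0.20, 0.50 after adjustment over 5 ratios). Saa3, a serum amyloid A gene expressed largely outside hepatocytes and not counted among the 10, had 686 ± 171 in control and 602 ± 74.2 in LKO livers (SD, n = 3 each; log2 fold change −0.17, adjusted p = 0.973, limma).

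Hp and Hpx, the scavengers of haemoglobin and haem, were the most abundant members. Hp had 376201, 376712 and 354099 in control and 285741, 346194 and 300032 in Blnc1 LKO livers. All LKO livers lay below all controls, with LKO replicate 2 closest to them. The mean of 369004 ± 12911 in control was 310656 ± 31596 in LKO livers (SD, n = 3 each), 84.2% of control, a log2 difference of −0.25 (SE 0.12; unadjusted p = 0.0742, adjusted p = 0.894, limma). Hpx had 503896, 506797 and 448695 in control and 394203, 462497 and 404208 in LKO livers, where LKO replicate 2 lay above control replicate 3. Its means were 486463 ± 32740 and 420302 ± 36882 (SD, n = 3 each), a log2 difference of −0.21 (SE 0.14, unadjusted p = 0.157, adjusted p = 0.951, limma). The unadjusted p depended on the tool. For Hp it was 0.0224 in edgeR and 0.00422 in DESeq2, and for Hpx 0.0472 and 0.0170. Neither gene passed after adjustment in these tools, with 0.842 and 0.311 for Hp and 0.876 and 0.662 for Hpx. The ratio of Hp to Hpx differed little, from 0.725 to 0.789 over all livers (exact permutation p = 0.40). Hp lies on chromosome 8 (109575128 to 109579172, minus strand) and Hpx on chromosome 7 (105591613 to 105600137, minus strand).

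Apcs differed least. It had 9614, 11071 and 7712 in control and 8848, 9214 and 9064 in Blnc1 LKO livers, so the LKO livers all lay inside the control range. The means were 9466 ± 1685 and 9042 ± 184 (SD, n = 3 each), and the log2 fold change of −0.05 (SE 0.11, adjusted p = 0.988, limma) became 0.07 without control replicate 2. Apcs lies on chromosome 1 (172893961 to 172895041, minus strand). No gene of GENCODE M21 overlaps any of the 10 genes.

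Compared per kilobase of the longest protein-coding transcript of each gene, the members spanned more than 2 orders of magnitude. That length was 2094 bases for Saa4, 609 for Saa1 and 652 for Saa2, so the order depends on the choice of transcript. In control livers the mean normalised count per kilobase was 324525 for Hpx, 274353 for Hp, 84172 for Orm1, 60539 for Saa1, 42850 for Saa2, 16823 for Lcn2, 11297 for Orm2, 9749 for Apcs, 9343 for Saa4 and 1772 for Orm3. Neighbours in this order did not overlap between livers, except that the range of Apcs (7942 to 11402) overlapped those of Orm2 (10131 to 13152) and Saa4 (8987 to 9708). In LKO livers the order from Hpx down to Lcn2 (12069) was the same, but Saa4 (11472) then came before Apcs (9312) and Orm2 (7744). The LKO range of Orm2 (6323 to 8564) lay below that of Apcs (9112 to 9489), and that of Saa4 (8584 to 13050) overlapped those of Lcn2 and Apcs.

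**Figure D3:**
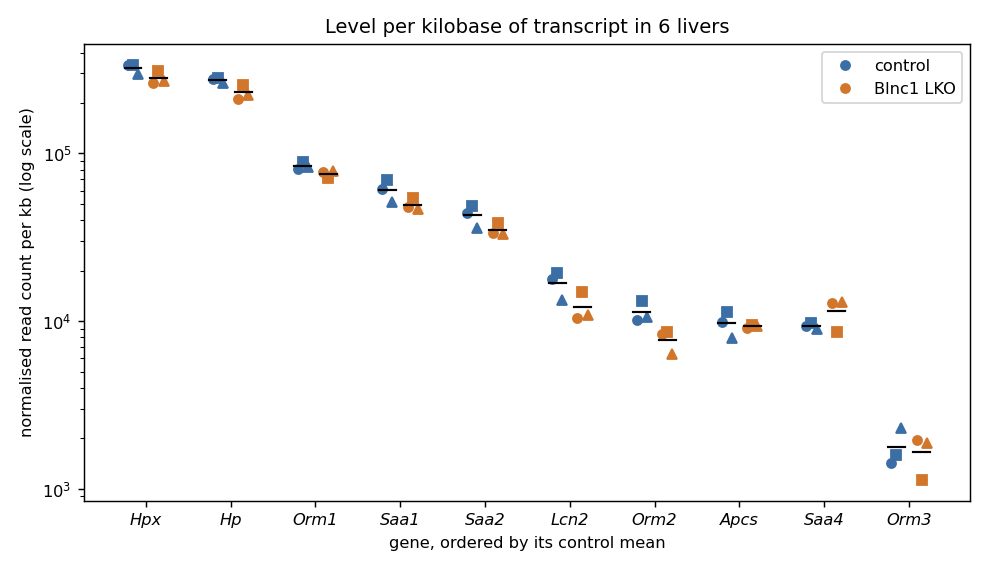
Normalised read count per kilobase of the gene's longest protein-coding GENCODE M21 transcript (y axis, log scale) for each acute-phase gene (x axis, ordered by control mean). Circles, squares and triangles are replicates 1, 2 and 3, blue for control and orange for Blnc1 LKO, and lines are group means. Hpx and Hp lie at the top in both groups and Orm3 at the bottom, and Orm2 ranks above Apcs and Saa4 in control and below both in LKO livers.

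The livers differed in how far they departed from the control mean. The median log2 deviation of the 10 members was 0.03, 0.14 and −0.10 in control replicates 1, 2 and 3 and −0.31, −0.14 and −0.28 in LKO replicates 1, 2 and 3. Control replicate 2 was the highest control liver for 9 members and the highest of all 6 livers for 8. Control replicate 3 was the lowest control for 7 members, and LKO replicate 2 was the highest LKO liver for 7. Each LKO liver was the lowest of the 6 for 3 members. Over the 6 livers, Pearson's r on the log2 scale was 1.00 for Saa1 with Saa2, 0.97 for Saa1 with Lcn2, 0.99 for Lcn2 with Hpx and 0.97 for Hp with Hpx. Saa4 had r = −0.86 with Hp and −0.73 with Lcn2, and Orm3 had r = −0.52 with Lcn2. These correlations describe 6 livers that share the 2 groups and the size factors. The genes outside the 10 whose log2 values most resembled the mean standardised log2 value of the members, among 12478 genes with a mean of at least 100, were Ifnar2 (r = 0.981), Vwa5a (r = 0.969) and Mtcp1 (r = 0.968), with log2 fold changes of −0.06, −0.08 and −0.10. They head a ranking over 6 livers in which 51 genes reached an r of at least 0.9. How many would do so by chance was not tested.

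**Figure D4:**
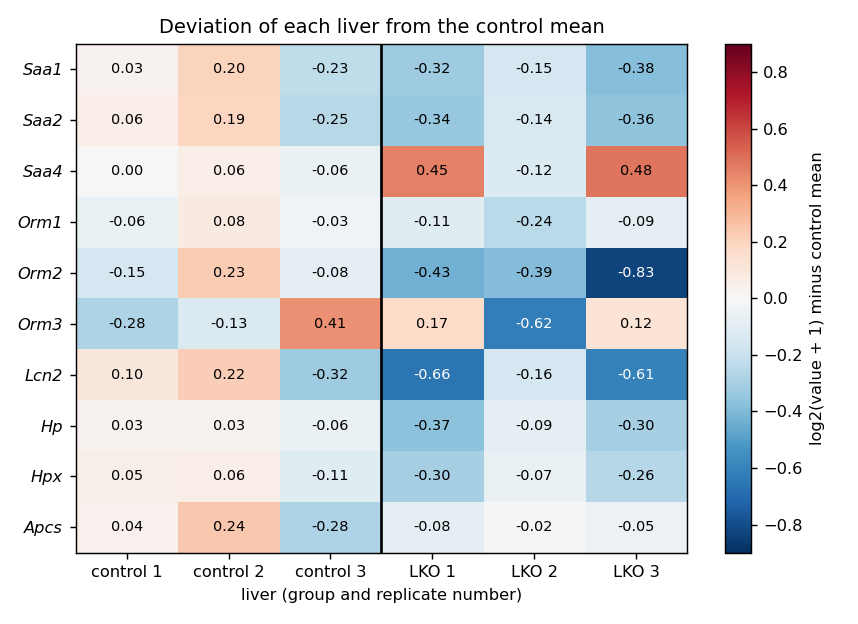
Log2(value + 1) minus the control mean of the gene (colour and printed number) for each acute-phase gene (rows) in each liver (columns, control to the left of the line and Blnc1 LKO to the right). LKO replicates 1 and 3 are low for most genes and high for Saa4 (0.45 and 0.48), whereas LKO replicate 2 deviates less for Saa1, Lcn2, Hp and Hpx.

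The wider acute-phase programme was read from lists of other genes. Of 25 other positive acute-phase genes, 20 had a lower and 5 a higher mean in Blnc1 LKO livers, with a median log2 fold change of −0.10. Only Hamp, which encodes the iron hormone hepcidin, passed the adjusted threshold, and it rose by 0.78 on the log2 scale, from 14080 ± 810 in control to 24160 ± 648 in LKO livers (SD, n = 3 each; SE of the difference 0.06, adjusted p = 0.0123, limma). It is induced by interleukin-6 as well as by iron, and its change was opposite in sign to those of 9 of the 10 members. In limma it did not pass without control replicate 1, control replicate 3 or LKO replicate 3, which left 0 genes of any list past the threshold. With all 6 livers its adjusted p was 0.0232 in edgeR and 2.13e-24 in DESeq2. At an unadjusted p under 0.05, 3 genes of the list were lower and 1, Hamp, was higher. The most abundant genes of the list were complement C3 (log2 fold change −0.09, adjusted p = 0.978, limma) and the fibrinogen chains Fga (0.15, adjusted p = 0.971) and Fgb (0.19, adjusted p = 0.932). Both fibrinogen means were higher in LKO livers, and C3 was lower in each LKO liver than in any control liver. Of the 7 negative acute-phase genes, 4 had a lower and 3 a higher mean, with 0 at an unadjusted p under 0.05 and a median log2 fold change of −0.04. Among them Alb differed by 0.02 (SE 0.33), Apoa1 by −0.06 and Rbp4, the plasma carrier of retinol, by 0.12. Trf, which encodes the iron carrier transferrin, was 1463146 ± 43117 in control and 1245654 ± 62510 in LKO livers (SD, n = 3 each) with no overlap, and its adjusted p was 0.971 in limma and 0.0759 in DESeq2.

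No gene upstream of the acute-phase response passed the adjusted threshold. Of 9 cytokine genes tested, 3 had a lower and 6 a higher mean, and 0 had an unadjusted p under 0.05. Il6 itself was near the detection limit, with 9.23 ± 6.06 in control and 4.16 ± 2.05 in LKO livers (SD, n = 3 each; 2 to 15 reads per liver; adjusted p = 0.944, limma). Il1a, Il1b and Ctf1 were the most abundant of the list, with log2 fold changes of 0.03, 0.25 and 0.02. Of 18 receptor and signalling genes, 0 had an unadjusted p under 0.05, and the largest means were those of Jak1 (log2 fold change −0.10, lower in each LKO liver), Il6st, which encodes gp130, and Stat3. Il6st was 10169 ± 476 in control and 10189 ± 637 in LKO livers, and Stat3 was 8868 ± 905 and 8890 ± 1326 (SD, n = 3 each). Messenger RNA levels do not measure whether STAT3 was active. Of 9 transcription factor genes, 1 had an unadjusted p under 0.05: Cebpb, an activator of acute-phase promoters, had 4835 ± 286 in control and 4162 ± 413 in LKO livers (SD, n = 3 each), a log2 difference of −0.22 (SE 0.08; unadjusted p = 0.0250, adjusted p = 0.840, limma). Control replicate 1 (4518) lay below LKO replicate 3 (4563), so its groups overlapped. Cebpa, Hnf4a and Nr3c1, the more abundant factors of the list, had log2 fold changes of 0.04, 0.04 and 0.02.

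Partners of these proteins were read the same way. Of 14 genes for binding partners and haem handling, 3 had an unadjusted p under 0.05 and all were higher, and 0 passed the adjustment. The smallest p belonged to Fpr2, a receptor for serum amyloid A on phagocytes, which had 139, 132 and 110 in control and 208, 169 and 271 in Blnc1 LKO livers. Its groups did not overlap, and its log2 fold change was 0.74 (SE 0.19; unadjusted p = 0.00394, adjusted p = 0.604, limma). Lrp1, the receptor for hemopexin with bound haem, had a log2 difference of 0.09, and the ferritin genes Fth1 and Ftl1 had −0.08 and −0.06. Fth1 was lower in each LKO liver than in any control liver. The others of the 3 genes with an unadjusted p under 0.05 were Hmox1 and Slc40a1. Both were higher in each LKO liver than in any control liver. Hmox1 was at 149% of control (unadjusted p = 0.0213, adjusted p = 0.831, limma). Slc40a1 was at 123% (unadjusted p = 0.0206, adjusted p = 0.824, limma).

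Markers of other liver cells varied beside these genes. Of 8 macrophage markers, 7 had a higher mean in LKO livers and 5 had an unadjusted p under 0.05, all higher, and their summed value ran from 52848 to 60455 in control and from 59449 to 68557 in LKO livers. Marco, a scavenger receptor of Kupffer cells, had 32.6, 87.4 and 23.4 in control and 794, 95.8 and 509 in LKO livers (adjusted p = 0.577, limma). Marco was named for its smallest p in the list. LKO replicates 1 and 3, the livers with high Marco, were also those with high Saa4 and low Lcn2 and Hp. The macrophage markers did not share 1 pattern over the LKO livers. Vsig4, Timd4 and Clec4f were higher in LKO replicates 1 and 3 than in LKO replicate 2. Cd68, Cd5l, Csf1r and Adgre1 were lowest in LKO replicate 1. The most abundant macrophage genes, Cd5l, Csf1r and Clec4f, had log2 fold changes of 0.02, 0.12 and 0.46, and that of Clec4f, a Kupffer cell lectin, had an unadjusted p of 0.0379 (adjusted p = 0.857, limma). Of 6 cholangiocyte and 5 stellate cell markers, 0 had an unadjusted p under 0.05, and their summed values overlapped between the groups. Of 5 endothelial markers, 2 had an unadjusted p under 0.05 and both were lower, Lyve1 among them (log2 fold change −0.57, adjusted p = 0.695, limma). The part of these cells in the values of the acute-phase genes was not tested.

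**Figure D5:**
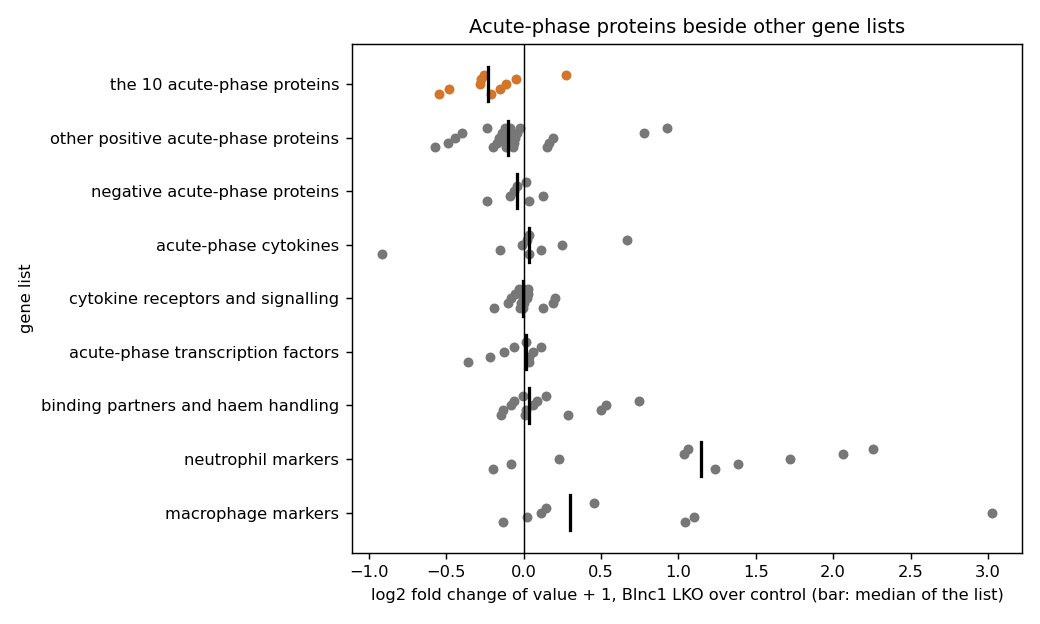
Log2 fold change of value + 1 (x axis, Blnc1 LKO over control, 3 livers each) of the genes of each list (y axis), 1 point a gene, with the list's median as a bar. The 10 acute-phase proteins have a median of −0.23. The medians of the receptor and signalling list and of the transcription factor list (0.02) lie close to 0. The neutrophil list has a median of 1.15, and its summed value was highest in LKO replicate 3 (7624).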

How the data were processed

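Livers were frozen in liquid nitrogen, RNA was isolated with Trizol, and libraries were made with the TruSeq RNA kit v2, which does not mark the strand. The authors used STAR for alignment (mm10), HTSeq for counting and DESeq2 for testing; versions, annotation and counting settings are not given in the sources used here. The deposited signal is a gene's read count over the size factor of its liver. Dividing by the value of 1 read gave whole numbers within 0.01 for 100% of the values, so reads were recovered, from 65384969 to 89350181 per liver. Columns named for wild type and knockout were matched to the control and LKO livers of that number; 4 rows share 2 symbols, none of them a gene named here.

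Genes that reached a value of 1 in 3 or more livers, 17297 in all, were fitted with limma 3.58.1 (R 4.3.3) on log2(value + 1), eBayes with a trend, and Benjamini-Hochberg adjustment at 0.05. edgeR 4.0.16 (quasi-likelihood) and DESeq2 1.42.0 on the recovered reads were alternatives, with another pseudocount (0.1), other filters, scaling by library size, a replicate block and each liver left out. DESeq2 gave no adjusted p for 1680 genes. Single ratios were compared by two-sided exact permutation tests. The labels name no batch. A p-value weighs a difference against the spread between these livers. In limma that spread is moderated toward a trend with abundance over all genes. The SE of a very abundant gene, such as 0.33 for Alb, is thus not that of its own livers alone.

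The members, gene lists and tests were chosen with earlier results of these data known. Named genes are the 10 members, Hamp, Saa3, the 3 genes of highest mean and the 1 of smallest p in each list (a few are given only in counts), and the 3 genes most like the members. Further genes of the lists, namely Cps1, Cxcr2, Hmox1, Slc40a1 and several macrophage markers, are named to complete a count or a pattern. Loci and transcripts are from GENCODE M21, promoters from RefSeq.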

Additional observations from a re-analysis of the deposited data

How the results depend on the processing

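All 10 log2 fold changes kept their sign under every other tool, filter, pseudocount and scaling, and under the leave-one-out fits with 3 exceptions: Orm3 was 0.14 without LKO replicate 2 and 0.09 without control replicate 3, and Apcs was 0.07 without control replicate 2 (ranges −0.26 to 0.14 and −0.19 to 0.07). The count of members past the adjusted threshold, 0 in limma, was 1 in DESeq2 (Orm2), and it stayed 0 in edgeR and with each liver left out (0 to 0). The count at an unadjusted p under 0.05, 4 in limma, was 8 in DESeq2 (4.89% of all genes), 2 in eBayes without a trend (5.37%), and from 1 to 7 with each liver left out (3.84% to 10.7%). The 2 members that passed without a trend were Orm2 and Hp. Lcn2 (unadjusted p = 0.0602), Saa1 (0.0799) and Saa2 (0.0924) did not pass in that limma fit. With each liver left out, Lcn2, Saa1 and Saa2 each passed in 2 of 6 fits, and Orm2 in 6 of 6. The count of genes of the other lists past the adjusted threshold, 1 (Hamp), was 0 in eBayes without a trend and from 0 to 1 with each liver left out. The median log2 fold change of the members, −0.23, ranged from −0.31 to −0.18 with each liver left out. The labels do not pair the livers by replicate number. Deviations of same-numbered livers correlated at −0.058, −0.019 and −0.107, and those of different-numbered livers at −0.047 to 0.105. Deviations sum to 0 within each group, so these correlations cannot decide whether same-numbered livers share a batch. With the replicate block, DESeq2 called 2 members (Orm2, adjusted p = 5.52e-04, and Lcn2, adjusted p = 0.00571) and 3 genes of the other lists, where 0.357% of all genes with an adjusted p passed, with 7 members at an unadjusted p under 0.05 (3.16% of all genes); limma with the replicate block called 0 members (Orm2, adjusted p = 0.598) and 0 genes of the other lists. The cause of these differences between tools was not tested. With 3 livers a group, 1 liver decides many of these counts.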
